A study of Homo sapiens with 3 samples.

Results

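Target genes of YAP and TEAD, 8 in number and widely used as readouts of their activity, are described here across 3 RNA-seq libraries of Caco-2 cells. They were taken by name, with earlier results of these data known. They comprise CCN1, CCN2, ANKRD1, AMOTL2, LATS2, AJUBA, F3 and AXL, which are 8 of the 60664 gene identifiers in the deposited count table. All 8 were matched to an Ensembl identifier, and 7 reached 1 CPM, the usual count scaled to library size, in at least 1 library. CCN2 did not. Caco-2 is an established colon carcinoma line that serves as a model of the gut epithelium. The labels give its genotype as WT. Cells of the DSS+polydatin library had 30 µM polydatin, a resveratrol glucoside, for 2 h and then polydatin together with 3% dextran sulfate sodium (DSS) for 8 h. Cells of the DSS library had 3% DSS for 8 h, and control cells had neither agent. Each group was 1 library, so no difference below has a replicate check, no p-value is given, and each ratio compares libraries and not conditions. The days in culture and the state of confluence, which bear on Caco-2 cells as an epithelial model, were not stated in the sources used here. Groups with erastin or Fer-1 that the design names are not analysed here.

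YAP and its relative TAZ (gene WWTR1) are coactivators that bind no DNA on their own and reach genes through the TEAD transcription factors. The Hippo kinase cascade restrains them. STK3 and STK4 activate LATS1 and LATS2, which phosphorylate YAP and TAZ and keep them out of the nucleus. In the gut of mice, YAP is known for its part in epithelial regeneration after injury, DSS colitis included. The 8 genes fall into 3 kinds. CCN1, CCN2, F3 and AXL encode secreted or cell surface proteins, ANKRD1 encodes an ankyrin repeat protein of the nucleus and the sarcomere, and AMOTL2, LATS2 and AJUBA encode regulators of the Hippo pathway itself, so that they are both targets and parts of it.

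The start sites of these genes were searched for the letters of TEAD sites. RefSeq start-site windows on GRCh38.p14, which run from 250 bases before to 50 after a transcription start, were found for 7 of the 8 genes, in 10 windows. CCN1 had no entry. The TEAD motif searched was GGAATG on both strands, and the AP-1 motif was TGANTCA, which reads the same on both strands. The motifs do not overlap in these windows. A match is a description of letters and not a proven binding site. Of 35116 RefSeq windows, 4928 held the TEAD motif at least once, 1.37% at least 2 times and 0.128% at least 3 times. The AP-1 motif was held at least once by 7.71% and at least 2 times by 0.515%. CCN2 held 3 TEAD matches, which is the densest arrangement among the members, and its upstream stretch (chr6:131951374-131951622, minus strand) is shown for that reason with the matches in capitals.
CCN2: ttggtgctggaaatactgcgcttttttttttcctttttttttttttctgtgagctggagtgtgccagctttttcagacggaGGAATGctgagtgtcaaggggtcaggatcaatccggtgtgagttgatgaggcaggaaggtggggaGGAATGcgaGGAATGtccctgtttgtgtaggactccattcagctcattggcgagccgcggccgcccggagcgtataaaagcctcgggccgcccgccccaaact
The matches of the other members are shown as 30 bases on the strand of the gene, so that their flanks can be compared. Capitals mark the motif, written CATTCC where it lies on the opposite strand.
ANKRD1 at -220: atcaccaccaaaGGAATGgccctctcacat
ANKRD1 at -128: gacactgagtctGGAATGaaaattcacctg
AMOTL2 at -69: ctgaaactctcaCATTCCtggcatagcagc
LATS2 at 10: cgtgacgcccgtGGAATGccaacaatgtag
AJUBA at -59: gggaagttggctGGAATGaagccaaagcaa
AXL at -212: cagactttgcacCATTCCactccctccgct
These lie at chr10:90921290-90921319 and chr10:90921198-90921227 for ANKRD1, chr3:134374499-134374528 for AMOTL2, chr13:21061560-21061589 for LATS2 and chr14:22976884-22976913 for AJUBA, all on the minus strand, and at chr19:41226531-41226560 for AXL on the plus strand. AMOTL2, AJUBA and AXL each have 2 start sites in the table, and 1 of the 2 held the match in each. In all of them that start is the one further inside the annotated gene. Of the 250 bases before it, annotated exons covered 147 for AMOTL2, 250 for AJUBA and 0 for AXL. For ANKRD1 they covered 189 of the 250 bases. Its match at -128 lies inside the annotated gene, whose highest coordinate is 90921276, and its match at -220 lies outside. Matches inside a gene are not in the stretch before its outermost start. F3 held no TEAD match in its window. It held 2 AP-1 matches instead, capitalised in its upstream stretch (chr1:94541801-94542009, minus strand), shown because F3 was the member with the highest ratio of DSS+polydatin over DSS.
F3: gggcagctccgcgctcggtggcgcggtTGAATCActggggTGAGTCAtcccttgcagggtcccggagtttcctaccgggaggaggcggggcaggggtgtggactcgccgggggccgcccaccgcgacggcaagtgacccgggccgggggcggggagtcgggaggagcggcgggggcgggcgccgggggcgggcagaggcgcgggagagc
ANKRD1 also held 1 AP-1 match, at -195, between its TEAD matches.

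**Figure D1:**
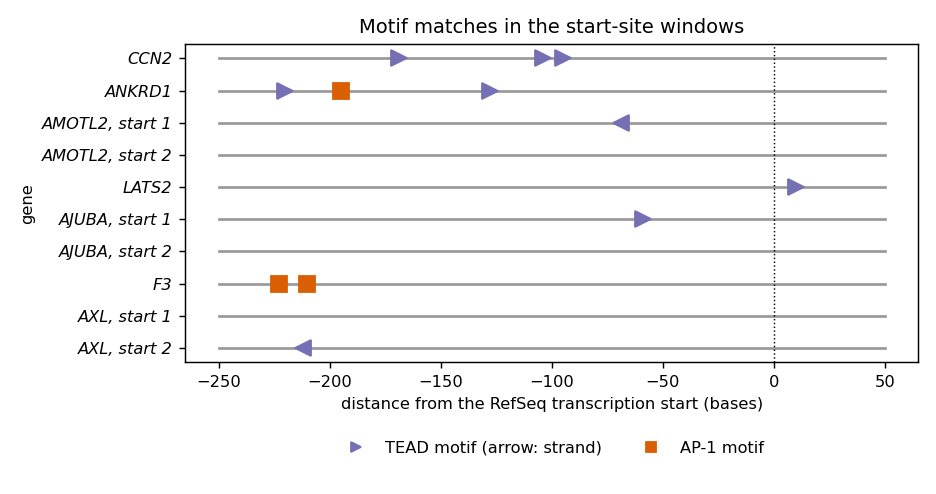
Motif matches by distance from the RefSeq transcription start, in bases, for 10 windows of 7 genes (CCN1 has none in the table). Arrows are TEAD matches pointing along their strand and squares are AP-1 matches; CCN2 has 3 arrows between -169 and -95, and F3 has squares and no arrow.

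Library totals were 16667622 counts for DSS+polydatin, 18825914 for DSS and 18695613 for control, and 1 CPM corresponded to between 17.4 and 18.5 counts after trimmed-mean-of-M (TMM) scaling. The epithelial markers went with the Caco-2 label. Of 10 fixed markers, 9 were measured, CDX1 was at 0 in all 3 libraries, and their summed level was 7910 CPM in DSS+polydatin, 9686 CPM in DSS and 7954 CPM in control. Fibroblast, endothelial and leukocyte markers summed to between 55.0 and 68.4, between 23.3 and 31.4, and between 6.88 and 12.3 CPM. The leukocyte marker PTPRC was at 0 in every library. Histone genes of the replication-dependent class, whose mRNAs as a rule carry no poly(A) tail, differed between libraries, with 9 of 11 at least 1.5-fold higher and a counting interval above 1 in DSS against control, and 7 of 11 in DSS+polydatin against control. Over all measured genes those shares were 9.45% and 16.0%. Mitochondrially encoded transcripts took 4.34% of counts in DSS+polydatin, 4.77% in DSS and 5.31% in control. The part of the histone and mitochondrial differences in the values below was not tested. In bulk RNA, fewer cells of a type and less RNA per cell cannot be told apart.

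The members spanned a wide range of levels. As TPM, which scales counts to transcript length as well as to library size and was taken over the summed exon length in GENCODE 29, ANKRD1 led in all 3 libraries, with 286 TPM in DSS+polydatin, 184 TPM in DSS and 198 TPM in control. CCN1, which encodes a matricellular protein that binds integrins, stood next in DSS+polydatin at 194 TPM and in DSS at 120 TPM, and came to 96.8 TPM in control, where it was the fourth in order. AMOTL2 had 137 TPM in DSS+polydatin, 115 TPM in DSS and 126 TPM in control, and AJUBA had 149 TPM in DSS+polydatin, 114 TPM in DSS and 114 TPM in control. In the DSS library the intervals of CCN1 and AMOTL2 overlapped, as did those of AMOTL2 and AJUBA, so these neighbours in the order do not differ beyond counting error there. The TPM values here and in the next paragraph carry no TMM factor, so their differences between libraries are not those of the ratios below. AMOTL2 was higher in DSS+polydatin than in control as TPM, yet its TMM-scaled ratio was 0.964.

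LATS2 had 36.6 TPM in DSS+polydatin, 28.4 TPM in DSS and 30.8 TPM in control. F3, tissue factor, the surface receptor that starts coagulation, had 47.0 TPM in DSS+polydatin, 26.7 TPM in DSS and 26.7 TPM in control. LATS2 and F3 overlapped in the DSS and control libraries, and in DSS+polydatin F3 stood above LATS2. AXL, a receptor tyrosine kinase for the ligand GAS6, was the lowest of the 7 measured members, with 18.3 TPM in DSS+polydatin, 13.96 TPM in DSS and 9.33 TPM in control. CCN2, the textbook YAP target that encodes connective tissue growth factor, was close to absent, with 6 counts in DSS+polydatin, 5 in DSS and 3 in control, or 0.344 CPM in DSS+polydatin, 0.270 CPM in DSS and 0.165 CPM in control. Those counts lie near the limit of 3 counts that stands for a floor, and the DSS over control ratio of 1.63 had an interval of 0.318 to 10.5. No difference in CCN2 was detectable at this depth. All 7 measured members had at least 13.7 CPM in every library, so none passed the filter through a single library alone.

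**Figure D2:**
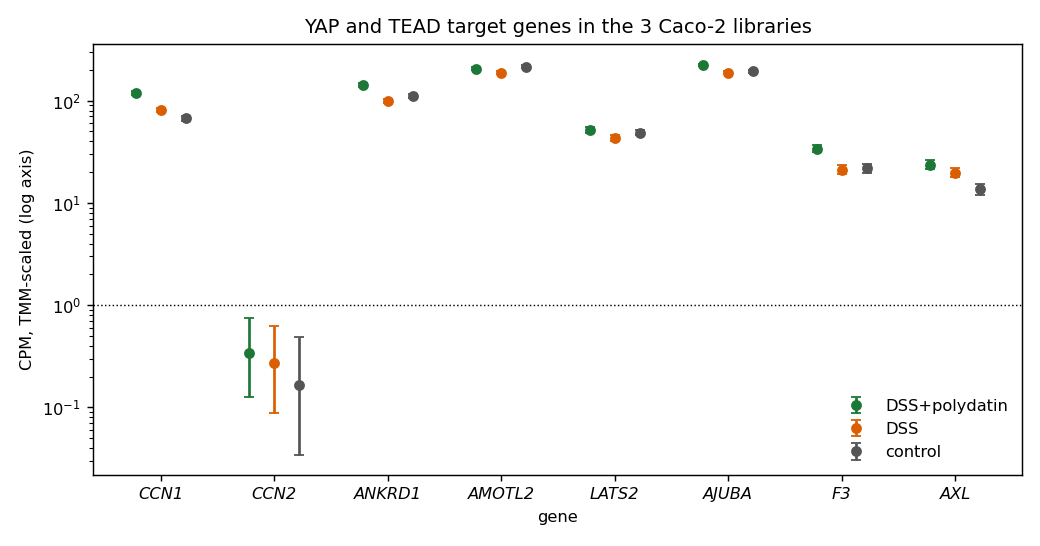
CPM of the 8 genes on a log axis, with exact 95% Poisson counting intervals, for the DSS+polydatin, DSS and control libraries from left to right within each gene. The dotted line is 1 CPM; CCN2 lies under it in all 3 libraries and the other members lie between 13.7 and 223 CPM.

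DSS against control sets the DSS library beside the control library. AXL and CCN1 were above control, AMOTL2, LATS2 and ANKRD1 were below it, and none of these differences reached 1.5-fold. A gene was called when its ratio was at least 1.5-fold either way and its exact 95% counting interval excluded 1. In this comparison 9.45% of the 14792 measured genes were called higher and 5.81% lower, and 0 of the 7 measured members were called in either direction, a share too near the background to say anything about the members. Their median log2 ratio was -0.05, beside -0.01 over all measured genes. Intervals that excluded 1 at any fold were above 1 for 2 members and below 1 for 3, against 26.1% and 27.2% of all measured genes, and 2 members had a ratio above 1, against 49.5%. All 7 lie among the 9209 genes with at least 10 CPM in all 3 libraries, where 5.61% were called higher and 3.78% lower and where intervals lay above 1 for 29.7% and below 1 for 35.5%. At a 2-fold rule, 4.24% of measured genes and no member were higher, and 1.76% and no member lower.

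AXL came nearest to the threshold, with 366 counts in DSS and 248 in control, 1.45 times control (1.23 to 1.71). CCN1 had 1500 counts in DSS and 1226 in control, 1.20 times control (1.11 to 1.29). These were the members above control. The regulators of the pathway and ANKRD1 lay slightly under it. AMOTL2, a scaffold that holds YAP at junctions, had 3492 counts in DSS and 3883 in control, 0.881 times control (0.842 to 0.923). LATS2, the kinase that phosphorylates YAP, had 806 counts in DSS and 886 in control, 0.892 times control (0.809 to 0.982). ANKRD1 had 1849 counts in DSS and 2018 in control, 0.898 times control (0.843 to 0.957). AJUBA, a LIM protein that binds and restrains LATS kinases, was at 0.963 times control (0.919 to 1.01) and F3 at 0.968 times (0.839 to 1.12), both with intervals that reach 1. After a correction for GC content and transcript length, the log2 ratio of F3 came to 0.06, on the other side of 0 from -0.05, and that of ANKRD1 to -0.04 (-0.13 to 0.05), so that its interval then reached 0. The same correction put AMOTL2 at -0.36 and AJUBA at -0.15, with both intervals below 0.

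DSS+polydatin against DSS sets the library with both agents beside the library with DSS alone, and here all 7 measured members were higher, most of them by little. F3 was called higher, which makes 1 of 7 members, where 5.39% of measured genes were called higher and 2.60% lower. With libraries scaled by total counts those shares were 7.61% and 1.57%, and 3 members, CCN1, ANKRD1 and F3, were called. The median log2 ratio of the members was 0.26, beside -0.01 over all measured genes. The interval lay above 1 for 7 of 7 members at any fold, against 20.2% of all measured genes, and below 1 for none, against 25.8%. A ratio above 1 was found for 48.4% of all measured genes. Among the 9209 genes with at least 10 CPM in all 3 libraries, 1.28% were called higher and 1.88% lower, and intervals lay above 1 for 21.2% and below 1 for 37.2%. At a 2-fold rule no member was called, against 1.94% of measured genes higher and 0.460% lower.

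F3 had 591 counts in DSS+polydatin and 391 in DSS, 1.61 times DSS (1.41 to 1.83). CCN1 had 2079 counts in DSS+polydatin and 1500 in DSS, 1.47 times DSS (1.38 to 1.57). ANKRD1 had 2472 counts in DSS+polydatin and 1849 in DSS, 1.42 times DSS (1.34 to 1.51). These were the 3 highest ratios among the members. The intervals of F3, CCN1 and ANKRD1 all reach across the threshold of 1.5 and overlap one another. Those of CCN1 and ANKRD1 also overlap that of AXL. Of all measured genes, 94.5% had a lower ratio than F3, 91.8% a lower ratio than CCN1 and 90.3% a lower ratio than ANKRD1.

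The pathway regulators and AXL differed by less. AXL had 413 counts in DSS+polydatin and 366 in DSS, 1.20 times DSS (1.04 to 1.38). AJUBA had 3895 counts in DSS+polydatin and 3467 in DSS, 1.19 times DSS (1.14 to 1.25). LATS2 was at 1.18 times DSS (1.07 to 1.29), with 892 counts in DSS+polydatin and 806 in DSS. AMOTL2 was closest to the DSS level at 1.09 times (1.04 to 1.15), with 3594 counts in DSS+polydatin and 3492 in DSS. After correction for GC content and length, the log2 ratio of AMOTL2 came to 0.01 (-0.05 to 0.08) and that of AXL to 0.18 (-0.02 to 0.39), so that 5 of the 7 intervals stayed above 0.

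**Figure D3:**
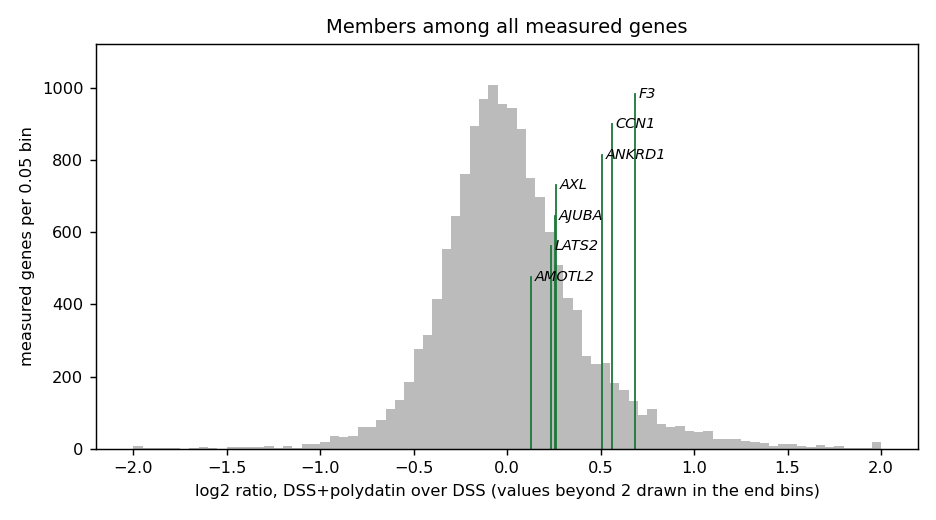
Histogram of the log2 ratio of DSS+polydatin over DSS for all 14792 measured genes, as genes per bin, with the 7 measured members as green lines. AMOTL2 (0.13), LATS2 (0.23), AJUBA (0.26) and AXL (0.26) lie in the right flank of the distribution, and ANKRD1 (0.51), CCN1 (0.56) and F3 (0.68) lie further out.

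DSS+polydatin against control asks where the targets stood with both agents given. CCN1, AXL and F3 were called higher, which makes 3 of 7 members, where 16.0% of measured genes were called higher and 12.4% lower. With total-count scaling those shares were 19.9% and 8.33%. The interval lay above 1 for 5 members and below 1 for none, against 30.7% and 34.4% of all measured genes, and 6 members had a ratio above 1, against 48.6%. Among the genes with at least 10 CPM in all 3 libraries, 10.1% were called higher and 12.4% lower, and intervals lay above 1 for 31.2% and below 1 for 45.5%. At a 2-fold rule no member was called, against 8.53% of measured genes higher and 3.27% lower. The median log2 ratio of the members was 0.35, beside -0.02 over all measured genes. This comparison shares its libraries with the others, so its ratios follow from theirs and are not a further observation.

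CCN1 had 2079 counts in DSS+polydatin and 1226 in control, 1.77 times control (1.64 to 1.90). AXL had 413 counts in DSS+polydatin and 248 in control, 1.73 times control (1.48 to 2.04). F3 had 591 counts in DSS+polydatin and 396 in control, 1.55 times control (1.37 to 1.77). The intervals of AXL and F3 reach across 1.5. ANKRD1 was at 1.28 times control (1.20 to 1.35) and AJUBA at 1.15 times (1.10 to 1.20). LATS2 at 1.05 times control (0.954 to 1.15) and AMOTL2 at 0.964 times (0.921 to 1.01) had intervals that reach 1. Total-count scaling put the AMOTL2 log2 ratio at 0.05 where the main scaling gave -0.05, and the correction for GC content and length put that of LATS2 at -0.08 where it had been 0.07. Under that correction AMOTL2 was at -0.35 (-0.41 to -0.28) and AJUBA at 0.05 (-0.02 to 0.11).

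Across the 3 libraries the order of the levels differed between members. CCN1 was lowest in control, intermediate in DSS and highest in DSS+polydatin, and so was AXL, though the interval of its step between DSS+polydatin and DSS reached 0 after the correction for GC content and length. F3 was alike in DSS and control within counting error and higher in DSS+polydatin. AJUBA was highest in DSS+polydatin, and its interval of DSS over control, which included 1, lay below it with DESeq2 size factors, with thinned libraries and after the correction for GC content and length. Under that correction its interval of DSS+polydatin over control reached 0. ANKRD1, AMOTL2 and LATS2 were lowest in DSS. The same correction took the ANKRD1 interval of DSS over control and the AMOTL2 interval of DSS+polydatin over DSS to 0. ANKRD1 was higher in DSS+polydatin than in control, while LATS2 and AMOTL2 lay on a side of control that depended on the processing.

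**Figure D4:**
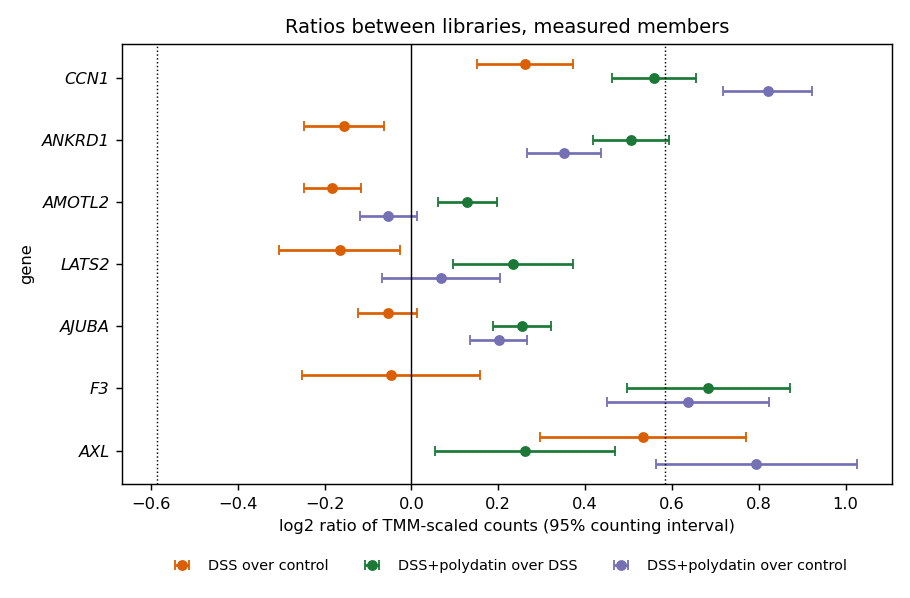
Log2 ratios of the 7 measured members in the 3 comparisons, with exact 95% counting intervals from 1 library per group; dotted lines mark 1.5-fold either way. All 7 green points (DSS+polydatin over DSS) lie right of 0, and no orange point (DSS over control) lies past a dotted line.

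The members were taken by name, with earlier results of these data known, and other properties were compared after their values were seen. Of the 7 measured members, those with the highest ratios of DSS+polydatin over DSS have the shortest summed exons. F3 has 2875 bases, CCN1 2455 and ANKRD1 1979, against between 5154 and 5984 bases for AXL, AMOTL2, LATS2 and AJUBA. CCN2, which was not measured, has 2339 bases. F3 and ANKRD1 also have the lowest GC content in the longest transcript, 43.7% and 43.3%, against between 50.3% and 56.7% for the others. The correction for GC content and length used the length of the longest transcript and not that of the summed exons. After it, the log2 ratios of F3, CCN1 and ANKRD1 were 0.75, 0.57 and 0.58, beside 0.68, 0.56 and 0.51 before. The members lie on chromosomes 1 (CCN1, 85580761 to 85583962, and F3, 94529225 to 94541800), 3 (AMOTL2, 134355874 to 134375479), 6 (CCN2, 131948176 to 131951373), 10 (ANKRD1, 90912096 to 90921276), 13 (LATS2), 14 (AJUBA) and 19 (AXL), in GENCODE 29 coordinates on GRCh38. Of the annotated genes that overlap a member, those in the count table held between 0 and 4 counts in each library.

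Other known YAP and TEAD targets were taken from a widely used signature and textbook examples, less the members. Of 20, 15 were measured. For this list and those below, the background is the share of all measured genes called. It was 9.45% higher and 5.81% lower in DSS against control. It was 5.39% and 2.60% in DSS+polydatin against DSS, and 16.0% and 12.4% in DSS+polydatin against control. DSS against control had 3 called higher, with a median log2 ratio of 0.15. EDN1, the vasoactive peptide endothelin, had 1728 counts in DSS and 1011 in control, 1.68 times control (1.55 to 1.81). The stress gene GADD45A was at 1.61 times control (1.44 to 1.80) and MYOF, a membrane repair ferlin, at 1.52 times (1.45 to 1.59).

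In DSS+polydatin against DSS, the median log2 ratio of the 15 was 0.27, and 14 had a ratio above 1. NUAK2, a kinase of the AMPK family, was called higher and had 613 counts in DSS+polydatin and 419 in DSS, 1.55 times DSS (1.37 to 1.76). FJX1 was called lower on 45 counts in DSS+polydatin and 109 in DSS. Against control, 8 of the 15 were called higher in DSS+polydatin and 1 lower, with a median of 0.64. EDN1 was at 2.21 times control (2.05 to 2.38), MYOF at 2.04 times (1.95 to 2.13), GADD45A at 1.94 times (1.74 to 2.17) and the growth factor binding protein gene CRIM1 at 1.63 times (1.58 to 1.67). In the share called higher, this wider list stood above the background of 16.0%, as the members did. So did the AP-1 and immediate early lists below, with 7 of 8 and 7 of 13 called higher. In DSS against control, 0 of 7 members were called, where this list had 3 of 15 higher. All these lists were chosen with earlier results of these data known, so the shares are no separate support for the members.

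Genes tied to YAP in epithelial repair, a role known mainly from mice, were measured for 6 of 10. IL33 was at 0 in all 3 libraries. S100A6, a calcium-binding protein, had 1298 counts in DSS and 313 in control, 4.06 times control (3.59 to 4.61). AREG, an EGF receptor ligand, was at 1.82 times control (1.74 to 1.90). These were the 2 called in DSS against control, and none was called in DSS+polydatin against DSS, where the median log2 ratio was 0.15 and 6 of 6 ratios were above 1. S100A6, AREG and CLU were called in DSS+polydatin against control, at 4.49 times (3.97 to 5.09), 2.02 times (1.93 to 2.12) and 1.89 times control (1.76 to 2.04).

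Of the coactivators and TEAD factors, 9 were measured, with median log2 ratios of 0.04 for DSS over control, 0.14 for DSS+polydatin over DSS and 0.07 for DSS+polydatin over control. YAP1 had 542 CPM in DSS+polydatin, 619 CPM in DSS and 601 CPM in control. The summed level of the members was 800 CPM in DSS+polydatin, 641 CPM in DSS and 671 CPM in control. As CPM, YAP1 was thus lowest in the library where the members' sum was highest. As TPM, YAP1 was lowest in control, with 343 TPM in DSS+polydatin, 358 TPM in DSS and 336 TPM in control, so its order depends on the scaling. WWTR1, encoding TAZ, was called lower in DSS, with 1082 counts in DSS and 1607 in control, 0.660 times control (0.610 to 0.713), and had 60.5 CPM in DSS+polydatin, 58.4 CPM in DSS and 88.5 CPM in control. TEAD1 had 4724 counts in DSS+polydatin, 4220 in DSS and 4697 in control. TEAD2 was called higher in DSS at 1.58 times control (1.26 to 2.00) and in DSS+polydatin at 2.09 times control (1.68 to 2.62). TEAD3 had 62.1 CPM in DSS+polydatin, 55.5 CPM in DSS and 52.1 CPM in control, and TEAD4 had 27.7 CPM in DSS+polydatin, 33.5 CPM in DSS and 40.8 CPM in control. VGLL3, a TEAD cofactor, had 2001 counts in DSS+polydatin, 1439 in DSS and 923 in control, and was called at 1.53 times control in DSS (1.41 to 1.66) and 2.26 times control in DSS+polydatin (2.09 to 2.44). The list had 2 called higher and 1 lower in DSS against control, none in DSS+polydatin against DSS, where 7 of 9 ratios were above 1, and 2 higher and none lower in DSS+polydatin against control.

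None of the 15 measured Hippo kinases and adaptors was called in any comparison, and their median log2 ratios were -0.01 for DSS over control, 0.03 for DSS+polydatin over DSS and 0.03 for DSS+polydatin over control. LATS1, the paralog of LATS2, had 98.1 CPM in DSS+polydatin, 102 CPM in DSS and 98.6 CPM in control. Among 19 measured upstream regulators, 1 was called lower in DSS against control. This was WWC2, a scaffold related to KIBRA, with 2243 counts in DSS and 3516 in control, 0.625 times control (0.593 to 0.659). RASSF1 was the one called higher in DSS+polydatin against DSS, at 1.54 times DSS (1.25 to 1.91), and it was called against control too, at 1.59 times (1.28 to 1.97). Of the polarity genes, CRB3 reached 1.89 times control (1.64 to 2.18) in DSS+polydatin and LLGL2 1.59 times (1.45 to 1.74). Against control, 3 of the 19 were called higher in DSS+polydatin and none lower. The 1 of 19 lower in DSS, 1 of 19 higher against DSS and 3 of 19 higher against control are near the background of 5.81%, 5.39% and 16.0%. They say nothing particular about upstream regulators. Of 12 genes of the STRIPAK phosphatase complex, which opposes STK3 and STK4, STRIP2 was called lower in DSS at 0.416 times control (0.333 to 0.516). In DSS+polydatin STRIP2 was called lower at 0.603 times control (0.495 to 0.734) and MOB4 at 0.643 times (0.582 to 0.710). The lists of targets and of upstream regulators share AMOTL1 and PTPN14.

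Partners of the members' products were mostly present. Of 23 paralogs, ligands, receptors and inhibitors, 16 were measured. The CCN paralogs CCN4, CCN5 and CCN6 were at 0 in all 3 libraries, and CCN3 had between 3 and 8 counts. GAS6, the ligand of AXL, had 1031 counts in DSS and 655 in control, 1.54 times control (1.40 to 1.70), and in DSS+polydatin it was at 1.53 times control (1.38 to 1.69). TFPI, the inhibitor of the tissue factor pathway, had 319 counts in DSS and 166 in control, 1.88 times control (1.56 to 2.29), and in DSS+polydatin 2.35 times control (1.95 to 2.84). F2RL1, the protease receptor PAR2 that tissue factor complexes cleave, was at 1.71 times control in DSS+polydatin (1.62 to 1.80). The integrin gene ITGB3 was called higher in all 3 comparisons on 57 counts in DSS+polydatin, 34 in DSS and 16 in control. The list had 3 called higher in DSS against control, 1 in DSS+polydatin against DSS and 4 in DSS+polydatin against control, with none lower. The 1 of 16 is near the background of 5.39%.

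Genes that answer to actin and serum signals move with the same cues as YAP targets, and CCN1 itself is an immediate early gene. Of 16 measured SRF and MRTF genes with actin cytoskeleton targets, 2 were called higher in DSS against control, none in DSS+polydatin against DSS and 5 in DSS+polydatin against control, and none lower. ZYX, the focal adhesion protein zyxin, was at 1.87 times control in DSS (1.71 to 2.04) and 2.13 times control in DSS+polydatin (1.96 to 2.32). In DSS+polydatin, FLNA reached 1.91 times control (1.87 to 1.97), TAGLN 1.72 times (1.62 to 1.84) and MRTFA 1.59 times (1.36 to 1.85). CNN1, the other gene called in both, had 21 counts in DSS+polydatin, 14 in DSS and 4 in control.

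AP-1 factors, which often bind beside TEAD, differed more than the members did. Of 8 measured, 5 were called higher in DSS against control, 5 in DSS+polydatin against DSS and 7 in DSS+polydatin against control, with median log2 ratios of 0.85, 0.63 and 1.56. JUN had 1160 counts in DSS+polydatin, 789 in DSS and 272 in control, 1.56 times DSS (1.43 to 1.71) and 4.44 times control (3.89 to 5.09) in DSS+polydatin. JUND was at 2.87 times control in DSS (2.51 to 3.30), and in DSS+polydatin at 1.67 times DSS (1.52 to 1.82). ATF3 was at 2.13 times control in DSS (1.84 to 2.47), JUNB at 1.54 times DSS in DSS+polydatin (1.23 to 1.94) and FOSL2 at 1.74 times control in DSS+polydatin (1.66 to 1.82). Of 13 other measured immediate early genes, 4 were called higher and 1 lower in DSS against control, 7 higher in DSS+polydatin against DSS, and 7 higher and 1 lower in DSS+polydatin against control. EGR1 was the one lower in DSS, at 0.391 times control (0.352 to 0.434), and was at 1.72 times DSS in DSS+polydatin (1.53 to 1.92). In DSS+polydatin, DUSP1 reached 1.89 times DSS (1.73 to 2.07), NR4A1 1.94 times (1.69 to 2.22) and KLF6 1.58 times (1.51 to 1.66). The part of these factors in the values of CCN1, F3 and the other members was not tested.

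**Figure D5:**
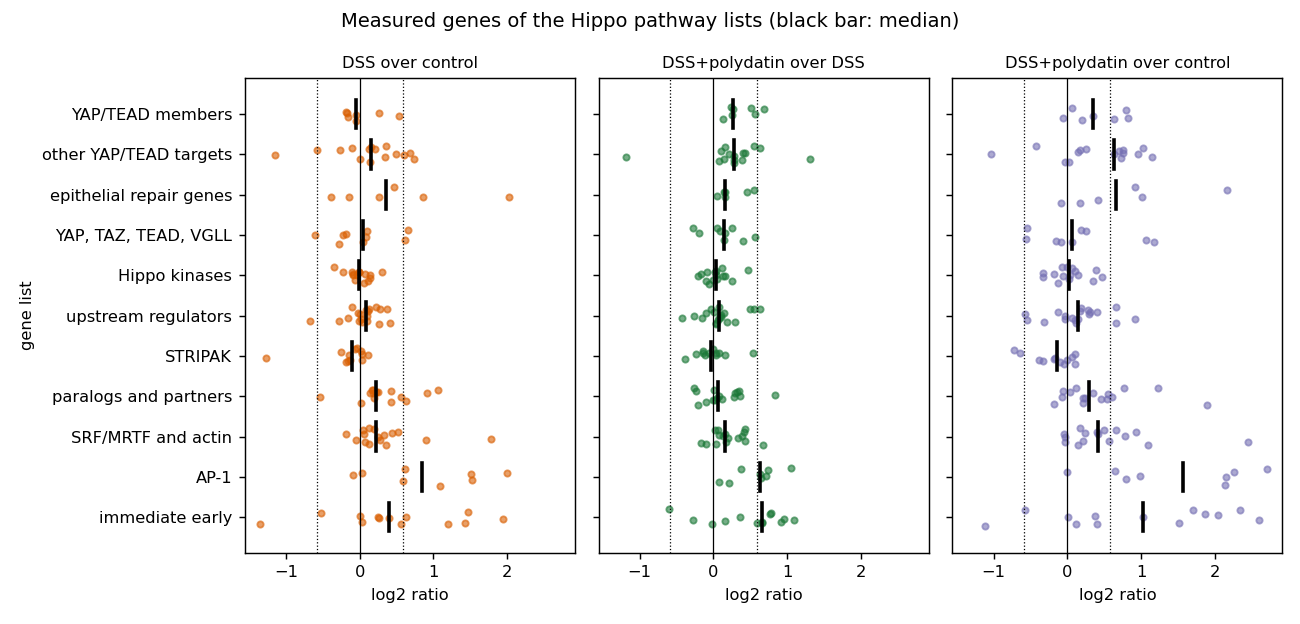
Log2 ratios of every measured gene in 11 lists for the 3 comparisons, 1 point a gene, with the list median as a black bar and 1.5-fold as dotted lines. The members' median is -0.05 in DSS over control and 0.26 in DSS+polydatin over DSS, and AP-1 genes have medians of 0.85 and 0.63.

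Genes with a course most like a member's were sought among the 9717 genes with a mean of at least 10 CPM, by Euclidean distance over the log2 ratios of DSS over control and DSS+polydatin over DSS. For CCN1 they were ABCC10, ULK1 and RBCK1, at distances between 0.026 and 0.030, and 243 genes lay within 0.25. For ANKRD1 they were GULP1, SEC24D and MATCAP2, with 223 genes within 0.25. For F3, whose course was the least shared, they were EML2, TPT1-AS1 and ERN1, at distances between 0.030 and 0.061, with 78 genes within 0.25. AXL lay nearest to INSR, ITPRIPL2 and TLCD1, with 716 genes within 0.25. AMOTL2 lay nearest to PEX14, CTNNBIP1 and ING1, LATS2 to DHRS1, ANKRD49 and ZNF594, and AJUBA to THNSL2, C2orf42 and NRM, and between 1234 and 1922 genes lay within 0.25 of each of these. The likeness rests on 3 libraries that all genes share. No member was among the 3 nearest genes of another.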

How the data were processed

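DSS+polydatin, DSS and control cells each gave 1 RNA-seq library. Per the labels' protocols, total RNA came from Trizol extraction and cDNA from a Vazyme VAHTS V6 kit. HISAT2 and GRCh38 are named as aligner and build, per the submitters' processing notes. The sources used here do not state the aligner version, counting program, annotation release or strand setting. The authors deposited raw read counts per Ensembl gene, with no normalization, and these counts were used as deposited. Symbols were matched for 60463 identifiers (99.7%).

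Counts were scaled with TMM factors from edgeR 4.0.16 (R 4.3.3). For each gene of the whole table the ratio of scaled counts was taken with a 95% Clopper-Pearson interval on the counts of the 2 libraries (scipy 1.17.1). Intervals and floors cover counting error only, since reads are not independent molecules. Measured genes had a CPM of at least 1 in at least 1 library, and calls needed 1.5-fold and an interval excluding 1. A replicate test such as edgeR's needs more than 1 library per group, so none was run. Ratios and intervals were tested on simulated counts drawn with Poisson counting error only. That check cannot speak to the spread between cultures.

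The members and lists were chosen with earlier results of these data known. Named genes were the members, YAP1, WWTR1, TEAD1 to TEAD4 and LATS1, up to 4 called genes per list and comparison with a mean of at least 5 CPM, and the 3 nearest genes of each member. The neighbours of CCN2 rest on 3 to 6 counts and are not given, and FJX1, CNN1, ITGB3, CCN3 to CCN6 and IL33 were named after their values were seen. Some genes of the lists, and the calls that rest on them, are not reported here. The alternatives replaced TMM by total counts or by DESeq2 1.42.0 size factors, dropped the filter or raised it to 10 CPM, thinned libraries to the lowest total, asked for 2-fold, added 2 counts throughout, or subtracted a robust spline fit (statsmodels 0.14.6) on transcript length and GC content. Start-site sequences came from RefSeq on GRCh38.p14, cut to bases outside GENCODE 29 exons or to 30 bases. Figures were drawn with matplotlib 3.10.9.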

Additional observations from a re-analysis of the deposited data

How the results depend on the processing

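No paired analysis was possible because each group is 1 library and the result comes from no test. Leaving out a replicate was not possible for the same reason. The count of 0 members called in DSS against control was the same under all 8 alternatives. The 2-fold rule and the filter of 10 CPM could not have changed it. In DSS+polydatin against DSS, the 1 member called became 3 with total-count scaling and 0 with a 2-fold rule, and in DSS+polydatin against control the 3 members called became 0 with a 2-fold rule. The median of the members in DSS+polydatin over control, 0.35, was 0.46 with total-count scaling, 0.49 with no filter, where CCN2 enters on 6 counts in DSS+polydatin and 3 in control, and 0.53 after the correction for GC content and length. Total-count scaling shifted the median of all genes by 0.09 in DSS+polydatin over DSS and by 0.11 in DSS+polydatin over control. Over 49 member values per comparison, a sign changed 0 times in DSS+polydatin over DSS, 2 times in DSS+polydatin over control (AMOTL2 and LATS2) and 1 time in DSS over control (F3). Dropping or raising the filter leaves each member's ratio as it was, so those values among the 49 could not change sign. Over all genes, 797 were called higher and 384 lower in DSS+polydatin against DSS, 1132 and 234 with total-count scaling, 237 and 234 with a CPM of at least 10, and 287 and 68 at 2-fold. In DSS+polydatin against control the numbers were 2367 and 1829, and 2957 and 1238, 1269 and 1315, and 1262 and 483 under the same alternatives. In DSS against control they were 1398 and 859, 749 and 438 with a CPM of at least 10, and 627 and 261 at 2-fold. Depth limits CCN2, whose counts cannot show a difference, and the lack of replicates limits the rest: a ratio of 1.2 to 1.5 with a narrow counting interval can still lie within the spread between cultures, which these data do not measure.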
